A study of Mus musculus with 8 samples.

Results

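Interferon-stimulated genes are the genes that cells switch on when interferon binds its receptors, and 34 of them were followed in the injured spinal cord of the mouse. They were given as a fixed list of gene symbols and found through mRNA probes carrying a RefSeq NM_ accession. No measured value entered that rule, but the list was chosen with earlier results of these data known. The 34 genes had 76 probes on the array, among 20476 mRNA genes with 47074 probes in all. Of these genes 33 had a probe bright enough to be kept, which meant a signal flagged as well above background by 4 or more of 8 arrays, and Mx1 did not. After the same filter 18198 mRNAs were tested. The arrays were hybridised with RNA of 4 cords with a contusion, a bruise made by a blunt impact, and of 4 control cords, all from female mice aged 8 weeks, 1 array per mouse. The segment was T9 to T10 around the injury, per the design text, which calls the controls sham, while their descriptions call them normal cord. The titles put all 4 contusions at 3 days after injury, whereas the descriptions of contusion replicates 1, 2, 3 and 4 give days 3, 4, 5 and 6. No strain, transgene or drug is named in the labels used here, and none of the samples is labelled as treated with interferon.

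Type I interferons act through a receptor of Ifnar1 and Ifnar2, and interferon gamma through Ifngr1 and Ifngr2. Janus kinases on these receptors phosphorylate transcription factors, which then bind the interferon-stimulated response element, in a complex that holds Stat2 and Irf9, or the gamma-activated site. The genes behind these elements encode proteins that sense foreign RNA, degrade it, block its translation or hold viruses at membranes. In the cord and brain, microglia, infiltrating macrophages, astrocytes and endothelium can all respond.

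The promoters of 6 members are shown because they span the ways in which the genes behaved: Bst2 and Irf8 with large differences, Isg15, Ifit1 and Rsad2 with a control that was as high as the injured cords, and Cmpk2 with a difference in the other direction. Each sequence is the 250 bases before the start of transcription, 5′ to 3′ on the strand of the gene, from RefSeq (GRCm38.p6). Capitals mark 2 short motifs, searched on both strands. The core of the interferon-stimulated response element was searched as GAAA, any 2 bases and GAAA again (on the other strand TTTC, any 2 bases and TTTC), and the core of the gamma-activated site as TTC, any 3 bases and GAA, which is its own reverse complement. The Bst2 window is chr8:71537473-71537722 (- strand). Irf8, for which the table has 2 windows, is shown at chr8:120736108-120736357 (+ strand). Isg15 lies at chr4:156200819-156201068 (- strand). Ifit1 lies at chr19:34640639-34640888 (+ strand). Rsad2 lies at chr12:26456453-26456702 (- strand). Its neighbour Cmpk2, transcribed away from it, lies at chr12:26468965-26469214 (+ strand).
Bst2: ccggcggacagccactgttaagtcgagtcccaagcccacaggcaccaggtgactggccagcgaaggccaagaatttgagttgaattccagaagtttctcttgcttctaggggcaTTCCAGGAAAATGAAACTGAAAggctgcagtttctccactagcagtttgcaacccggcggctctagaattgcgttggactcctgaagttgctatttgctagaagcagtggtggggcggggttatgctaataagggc
Irf8: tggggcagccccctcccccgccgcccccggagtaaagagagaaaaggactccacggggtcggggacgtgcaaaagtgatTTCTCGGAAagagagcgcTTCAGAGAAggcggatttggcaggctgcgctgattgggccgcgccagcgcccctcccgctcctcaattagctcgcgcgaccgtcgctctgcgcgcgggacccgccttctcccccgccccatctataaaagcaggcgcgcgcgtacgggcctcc
Isg15: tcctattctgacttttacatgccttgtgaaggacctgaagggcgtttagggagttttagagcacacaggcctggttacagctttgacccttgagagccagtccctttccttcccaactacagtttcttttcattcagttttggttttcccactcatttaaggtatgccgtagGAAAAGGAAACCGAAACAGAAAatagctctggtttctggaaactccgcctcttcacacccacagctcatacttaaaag
Ifit1: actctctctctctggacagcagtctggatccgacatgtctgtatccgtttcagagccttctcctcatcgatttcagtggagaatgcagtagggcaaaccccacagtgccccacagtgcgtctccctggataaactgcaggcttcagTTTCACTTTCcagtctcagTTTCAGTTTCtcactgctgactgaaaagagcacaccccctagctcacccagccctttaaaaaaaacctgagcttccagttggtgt
Rsad2: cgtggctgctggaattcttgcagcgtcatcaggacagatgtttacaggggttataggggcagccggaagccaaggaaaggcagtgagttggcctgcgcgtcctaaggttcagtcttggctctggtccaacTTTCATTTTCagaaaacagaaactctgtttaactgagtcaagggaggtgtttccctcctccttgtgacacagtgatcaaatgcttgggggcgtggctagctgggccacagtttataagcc
Cmpk2: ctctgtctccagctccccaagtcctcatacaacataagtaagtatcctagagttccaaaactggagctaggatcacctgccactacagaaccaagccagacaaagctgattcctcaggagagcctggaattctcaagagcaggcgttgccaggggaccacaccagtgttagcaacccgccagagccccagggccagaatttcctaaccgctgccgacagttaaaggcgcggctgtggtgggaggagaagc

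Bst2 held a gamma-activated site core with its first base at -136 from the start and interferon-stimulated response element cores at -130, overlapping its end, and at -124. Irf8 held gamma-activated site cores at -171 and -153. Isg15 held 3 overlapping response element cores at -78, -72 and -66, Ifit1 held them at -104 and -85, and Rsad2 at -120. No match to either core was found in the Cmpk2 window.

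Most interferon-stimulated mRNAs were higher in the contused cord, but by modest amounts, and one of the 4 controls carried many of them at the level of the injured cords. Of the 33 measured members 20 (60.6%) were called in either direction, where 51.2% of all mRNAs were. Among them 19 (57.6%) were called higher in contusion, at an adjusted p under 0.05, where 25.8% of all mRNAs were called higher. One member, Cmpk2, was called lower, where 25.4% of all mRNAs were, and 13 members were not called. The called increases ran between 0.37 and 1.70 on the log2 scale, and 7 of them were at least 2-fold. Over the members the median difference, contusion minus control, was 0.69 on the log2 scale, against -0.002 over all mRNAs tested. In 14 members (42.4%) every contusion array lay above every control array, which was so for 26.6% of all mRNAs, and in 1 member every contusion array lay below, as for 25.2% of all mRNAs. In the other 18 the groups overlapped. All levels are log2 processed intensities relative to the 75th percentile of the array, so they compare arrays for 1 probe and not one gene with another. In bulk tissue more cells of a type and more RNA per cell cannot be told apart.

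**Figure D1:**
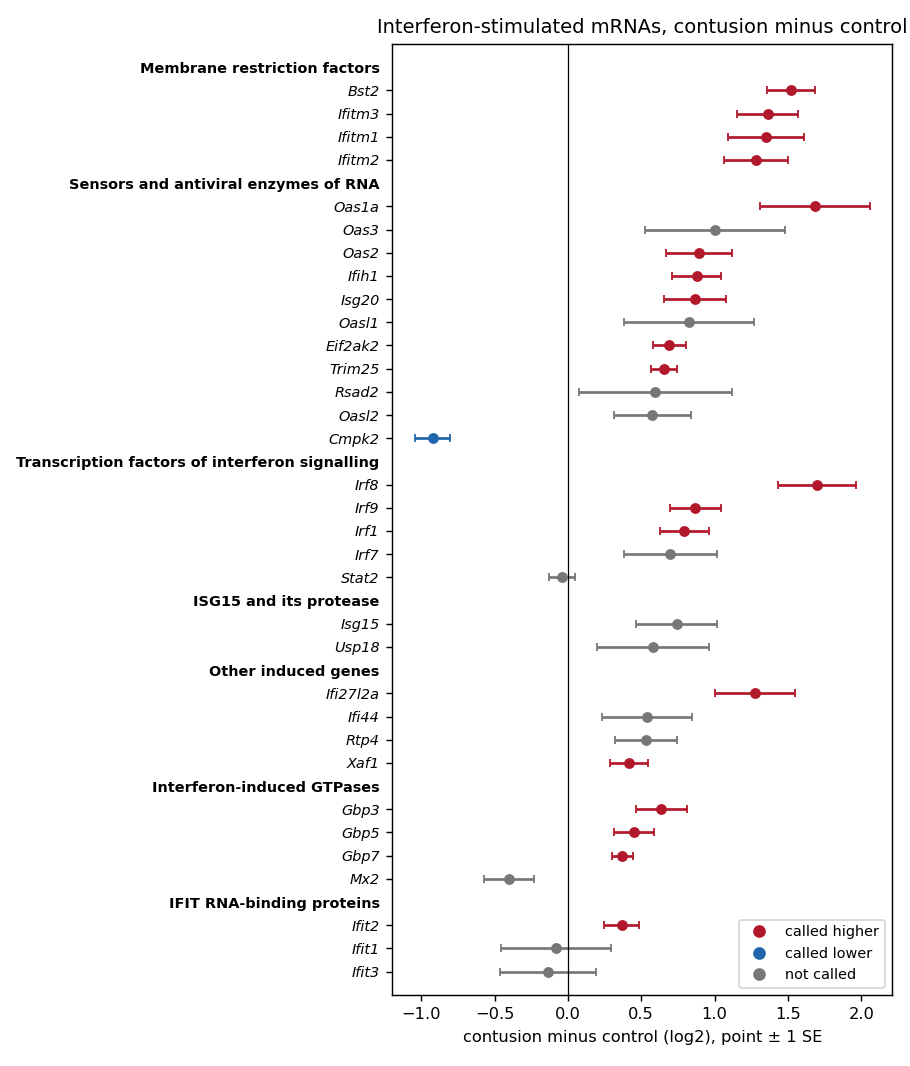
Difference of each member, contusion minus control on the log2 scale, with a bar of 1 standard error either side (n = 4 arrays per group), grouped by role and coloured by call. The 4 membrane factors lie between 1.29 and 1.52, while Ifit1, Ifit3 and Stat2 lie close to 0 and Cmpk2 at -0.92.

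No messenger RNA of the interferons themselves was called higher. Of 21 ligand genes 20 were on the array by these names and 13 passed the filter, 9 of them well above background on all 8 arrays, with 0 called higher, 2 lower and 11 not called. Ifnb1, interferon beta, and Ifng, interferon gamma, did not pass the filter. The called ones were Ifna15, an interferon alpha, at -0.80 ± 0.12 (SE, adjusted p = 0.0011), and Ifnl3, an interferon lambda, at -0.42 ± 0.08 (adjusted p = 0.00429). Whether these probes read only the RNA of their own gene was not tested.

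Among the 6 receptor chains 4 were called higher and 1 lower, where 25.8% and 25.4% of all mRNAs were. Il10rb, shared by the lambda interferon and interleukin 10 receptors, differed most, by 1.42 ± 0.15 (adjusted p = 0.000262). Its level was 4.08, 4.06, 4.06 and 4.15 on the contusion arrays, against 2.81, 2.44, 3.05 and 2.37 on the control arrays, with a wide gap between the groups. Ifnar2 was higher by 0.81 ± 0.10 (adjusted p = 0.000479), Ifngr1 by 0.52 and Ifngr2 by 0.24. Ifnar1 had a difference of 0.21 and was not called (adjusted p = 0.10). Ifnlr1, the chain specific to lambda interferons, fell by 0.44 on the log2 scale (adjusted p = 0.0069).

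Of 13 kinases, factors and inhibitors that carry or curb the interferon signal, 10 were called higher and 0 lower. Of all mRNAs 25.8% were called higher and 25.4% lower. The smallest adjusted p-values belonged to Irf5, a factor of macrophage activation (1.97 ± 0.22, adjusted p = 0.000328), Socs3, an inhibitor of cytokine receptors (2.74 ± 0.30, adjusted p = 0.000337), Ptpn6, a phosphatase of blood cells (2.05 ± 0.25, adjusted p = 0.000502), and Stat3 (0.79 ± 0.11, adjusted p = 0.000706). Jak1, Jak2 and Pias1 were not called.

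Of the 5 transcription factors among the members, Irf8, Irf9 and Irf1 were called higher. Irf8, which drives the myeloid lineage and is also used by microglia, had one of the largest differences, close to that of Oas1a. Its level was 3.44, 3.07, 3.40 and 3.38 on contusion arrays 1 to 4, against 1.92, 1.80, 2.02 and 0.76 on control arrays 1 to 4. The groups were far apart, and control replicate 4 was the lowest array. The difference was 1.70 ± 0.26, a 3.24-fold higher level in contusion (adjusted p = 0.00148). A dim second probe of Irf8 gave 3.08 on contusion replicate 1 and -0.08, 0.06 and 0.33 on contusion replicates 2 to 4, while the third probe gave 3.47, 2.96, 3.14 and 3.29. Irf9, the DNA-binding subunit of the complex with Stat2, was higher by 0.87 ± 0.17 (adjusted p = 0.00504), and Irf1, an early target of interferon gamma, by 0.79 ± 0.17 (adjusted p = 0.00586). For Irf1 1 of 3 probes showed a difference of 0.09 and was not called. Irf7, which drives the production of type I interferon, had a difference of 0.70 ± 0.32 and was not called (adjusted p = 0.121). Stat2 differed by -0.04 ± 0.09 (adjusted p = 0.753).

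The membrane factors were the one role in which all 4 members were called higher. Bst2, or tetherin, holds budding virus particles at the cell surface. Its level was 3.51, 3.17, 3.62 and 3.24 in contusion, against 2.18, 1.82, 1.95 and 1.49 in control cords. Even the lowest contusion array stood well above the highest control, and the difference of 1.52 ± 0.16, a 2.87-fold higher level, had the smallest adjusted p of the members (0.000294). The Ifitm proteins block the fusion of virus and cell membranes, and their 3 genes lie side by side on chromosome 7. Ifitm3 had 5.39, 5.55, 5.59 and 5.54 in contusion, against 4.47, 3.88, 4.62 and 3.66 in control cords. Ifitm1 had 3.76, 3.65, 3.78 and 3.79 in contusion, against 2.57, 2.09, 3.13 and 1.78 in control cords. Ifitm2 had 4.97, 4.88, 5.11 and 5.00 in contusion, against 3.72, 3.33, 4.39 and 3.38 in control cords. All 3 were tight among the contusions and spread among the controls, with control replicate 3 the highest control and no overlap. Their differences were 1.36 ± 0.21 for Ifitm3 (adjusted p = 0.00129), 1.35 ± 0.26 for Ifitm1 (adjusted p = 0.00404) and 1.29 ± 0.22 for Ifitm2 (adjusted p = 0.00225). The genes are close relatives, and how far their probes take up each other's RNA was not tested.

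**Figure D2:**
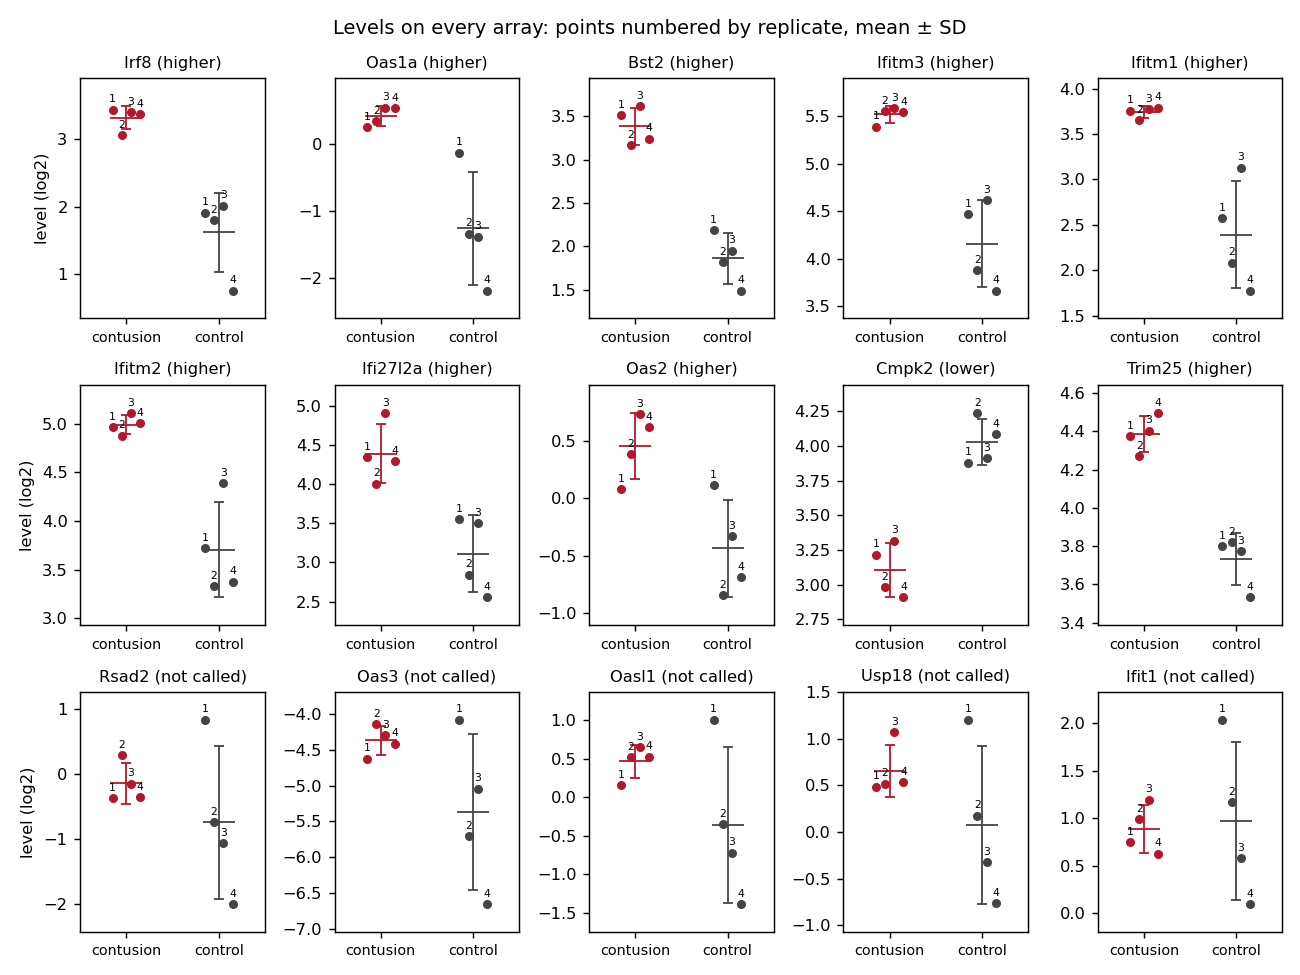
Level of the 15 members chosen by rule on each array (log2, relative to the 75th percentile of the array), contusion left and control right, with the mean ± SD and points numbered by replicate. For Rsad2, Oas3, Oasl1, Usp18 and Ifit1 control replicate 1 is the highest point of all and control replicate 4 the lowest.

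Of the 11 sensors and enzymes that act on RNA, 6 were called higher and 1 lower. The oligoadenylate synthetases make the messenger that turns on the nuclease RNase L. Oas1a had 0.27, 0.35, 0.55 and 0.55 in contusion, against -0.12, -1.33, -1.38 and -2.19 in control cords. Control replicate 1 came close to the contusions and the other controls lay far below, and the difference of 1.69 ± 0.37, a 3.22-fold higher level, was called (adjusted p = 0.00788). Oas2 had 0.08, 0.39, 0.73 and 0.62 in contusion, against 0.11, -0.85, -0.33 and -0.69 in control cords. Here control replicate 1 lay above contusion replicate 1, so the groups overlapped, while the difference of 0.90 ± 0.23 was called (adjusted p = 0.0143). Oas3 was near the limit of detection, with its probe well above background on 4 contusion arrays and on 2 control arrays. Its level was -4.62, -4.14, -4.29 and -4.41 in contusion, against -4.07, -5.71, -5.04 and -6.66 in control cords, and it was not called (adjusted p = 0.134). Ifih1 (MDA5, a sensor of double-stranded RNA) was higher by 0.88 ± 0.17, Eif2ak2 (PKR, a kinase that stops translation) by 0.69 ± 0.11, and Isg20, an exonuclease, by 0.87 ± 0.21. A dimmer Ifih1 probe gave 0.39 and was not called. Trim25, a ubiquitin ligase that works with the RNA sensor RIG-I, had 4.38, 4.27, 4.40 and 4.50 in contusion, against 3.80, 3.82, 3.77 and 3.53 in control cords. It was among the most even members within groups, and its difference of 0.66 ± 0.09 had one of the 3 smallest adjusted p-values (0.000705). A dimmer Trim25 probe gave 1.82.

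Cmpk2 and Rsad2 are neighbours on chromosome 12, and their products both act on nucleotides: Cmpk2 is a mitochondrial nucleotide kinase, and Rsad2, or viperin, makes a chain-terminating nucleotide. Cmpk2 had 3.22, 2.98, 3.32 and 2.91 in contusion, against 3.88, 4.24, 3.91 and 4.09 in control cords. Every contusion array lay below every control array, and the level fell by 0.92 on the log2 scale (SE 0.12, adjusted p = 0.000654). All 3 Cmpk2 probes were called lower, the other two at -0.82 and -0.85. Rsad2 had -0.37, 0.29, -0.15 and -0.36 in contusion, against 0.83, -0.74, -1.07 and -2.0 in control cords. Control replicate 1 was above all contusions and the other 3 controls below all of them, and the difference of 0.60 ± 0.52 was not called (adjusted p = 0.41). Its 4 probes gave differences between -0.45 and 0.72, and none was called.

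Oasl1 and Oasl2 are synthetase-like proteins encoded side by side on chromosome 5, and neither was called. Oasl1 had 0.16, 0.52, 0.65 and 0.53 in contusion, against 1.00, -0.35, -0.72 and -1.39 in control cords. The pattern was that of Rsad2, with a difference of 0.83 ± 0.44 (adjusted p = 0.181). Oasl2 differed by 0.58 ± 0.26 (adjusted p = 0.123).

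Isg15, a ubiquitin-like protein joined to other proteins, and Usp18, the protease that removes it and dampens the receptor, were not called. Isg15 had 0.71, 0.99, 1.21 and 0.78 in contusion, against 1.03, 0.12, -0.08 and -0.35 in control cords, a difference of 0.74 ± 0.28 (adjusted p = 0.0661). Usp18 had 0.49, 0.52, 1.07 and 0.53 in contusion, against 1.21, 0.18, -0.33 and -0.76 in control cords, a difference of 0.58 ± 0.38 (adjusted p = 0.275). In both, control replicate 1 reached the range of the contusions or passed it, and the other 3 controls were lower than every contusion.

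The 3 Ifit genes encode proteins that bind foreign RNA ends. Ifit1 had 0.75, 0.99, 1.20 and 0.63 in contusion, against 2.04, 1.17, 0.59 and 0.10 in control cords. The controls spanned a far wider range than the contusions and lay on both sides of them, with a difference of -0.08 ± 0.38 (adjusted p = 0.887). Ifit3 behaved likewise at -0.14 ± 0.33 (adjusted p = 0.778). Ifit2 was called higher with a small difference of 0.37 ± 0.12 (adjusted p = 0.041), but the call was lost, with differences of 0.29 to 0.40, when any 1 of control replicates 2, 3 and 4 or contusion replicates 1, 2 and 3 was left out. Its other probes, at 0.38 and 0.26, were not called.

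Guanylate-binding proteins are GTPases that attack membranes of pathogens, and the 3 among the members were called higher, by 0.64 ± 0.17 for Gbp3 (adjusted p = 0.0198), 0.45 ± 0.14 for Gbp5 (adjusted p = 0.0314) and 0.37 ± 0.07 for Gbp7 (adjusted p = 0.00439). For Gbp5 the second probe differed by -0.11 and was not called, and the call was lost, with differences of 0.34 to 0.46, without any 1 of control replicates 2, 3 and 4 or contusion replicates 1, 3 and 4. Gbp3 lost its call without control replicate 2 (0.58), control replicate 4 (0.53) or contusion replicate 3 (0.54). The second probe of Gbp7 differed by 0.39 and was not called. Of 6 relatives outside the members Gbp2 was called higher (0.72 ± 0.20), Gbp9 lower (-0.55 ± 0.11), and Gbp4, Gbp6, Gbp8 and Gbp10 were not called. The Mx proteins are antiviral GTPases of the dynamin family, and many inbred strains of laboratory mice carry defective alleles of both genes. Mx2 differed by -0.40 ± 0.17 and was not called (adjusted p = 0.0971), at -0.24 without control replicate 1, again not called, and at -0.52 without control replicate 3, where it was called lower. Both probes of Mx1 were well above background on 2 control arrays each and on 1 or 0 contusion arrays. The first gave -5.09, -5.06, -5.20 and -5.36 in contusion, against -3.75, -5.20, -6.07 and -6.35 in control cords, with control replicate 1 the brightest of the arrays.

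Ifi27l2a, a small membrane protein gene, had 4.34, 4.01, 4.91 and 4.29 in contusion, against 3.56, 2.84, 3.50 and 2.55 in control cords. The groups did not overlap, and the difference was 1.28 ± 0.27, a 2.42-fold higher level (adjusted p = 0.00649). Xaf1, an antagonist of an apoptosis inhibitor, was higher by 0.42 ± 0.13 (adjusted p = 0.0343), and lost the call, with differences of 0.33 to 0.43, without any 1 of control replicates 2, 3 and 4 or contusion replicates 1, 2 and 3. Ifi44 (0.54 ± 0.31) and Rtp4, a chaperone of membrane receptors (0.53 ± 0.21), were not called.

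The members varied far more among the controls than among the contusions. The median SD within a group was 0.168 over the contusion arrays and 0.458 over the control arrays, against 0.109 and 0.139 over all mRNAs, and the control SD was the larger in 32 of 33 members, compared with 66.1% of all mRNAs. The mean level over the 33 members was 1.70, 1.74, 1.93 and 1.72 on the contusion arrays, against 1.64, 1.05, 1.09 and 0.58 on the control arrays. Control replicate 1 was the highest control in 24 members (72.7%), compared with 19.8% of all mRNAs and 25.6% of the mRNAs called higher. Control replicate 4 was the lowest control in 28 members (84.8%), compared with 20.0% of all mRNAs and 45.5% of those called higher. Of the 13 members that were not called, 12 had control replicate 1 as the highest control, Stat2 being the other. Control replicate 1 lay above every contusion array in 9 members (27.3%), compared with 33.0% of all mRNAs. The members were Ifit1, Ifit3, Ifi44, Mx2, Oas3, Oasl1, Rsad2, Usp18 and Cmpk2. These shares are not alike in kind. In 25.2% of all mRNAs every contusion array lay below every control array, which by itself places control replicate 1 above them. Of the 9 members only Cmpk2 was such a case.

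Without control replicate 1 28 members were called higher and 1 lower, where 25.1% and 27.7% of all mRNAs were, and the median difference of the members was 0.96. As this array was the highest control in 24 members, leaving it out had to raise their differences. Leaving out any other single array gave 15 to 18 members called higher. The members added were Ifi44, Irf7, Isg15, Oas3, Oasl1, Oasl2, Rsad2, Rtp4 and Usp18. Isg15 then differed by 1.02 (adjusted p = 0.00225) and Rsad2 by 1.12 (adjusted p = 0.0257), while Ifit1 (0.27) and Ifit3 (0.17) turned positive and were not called.

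**Figure D3:**
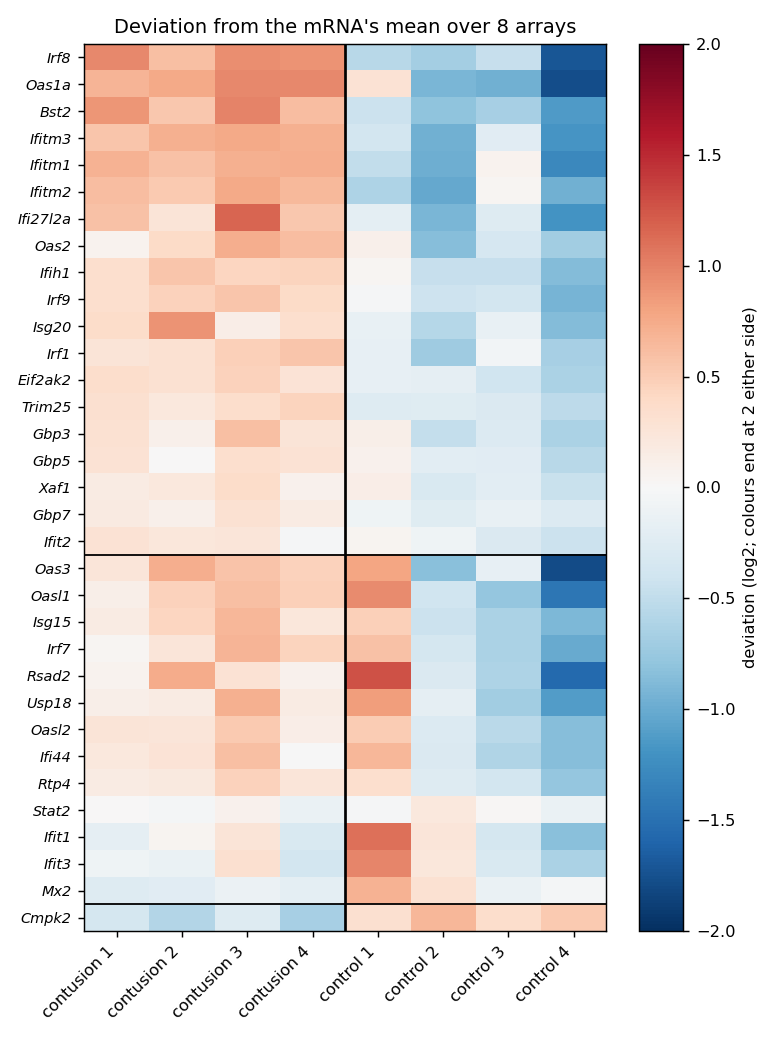
Deviation of each of the 33 members from its own mean over the 8 arrays (log2, red higher and blue lower), contusion arrays left and control arrays right, with the 19 members called higher on top, the 13 not called below and Cmpk2 last. The middle block is red in the column of control replicate 1 for 12 of 13 members.

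Control replicate 1 was also the control hybridised on the other slide. Slide 1 held contusion replicate 1 with control replicates 2, 3 and 4, and slide 2 held contusion replicates 2, 3 and 4 with control replicate 1, so what is particular to that mouse and to the slide cannot be told apart, nor can the slide and the days in the descriptions. Within slide 1 the median difference of the members was 0.79, and within slide 2 it was 0.12. All 19 members called higher had positive differences within both slides, whereas 11 members were positive within slide 1 and negative within slide 2. The slides split the same arrays that gave the calls, so a shared sign in called members is no separate evidence. The same counts over all mRNAs are not given here. Irf8 differed by 1.91 within slide 1 and 1.37 within slide 2, Bst2 by 1.75 and 1.16, Ifitm2 by 1.27 and 1.27, and Cmpk2 by -0.86 and -0.81. Rsad2 differed by 0.90 within slide 1 and -0.91 within slide 2. With slide as a block 14 members were called higher and 2 lower, where 25.2% and 20.4% of all mRNAs were, and the median difference was 0.39. Gbp3, Gbp5, Ifit2, Isg20 and Xaf1 then lost their calls, with adjusted p-values of 0.0769, 0.113, 0.125, 0.0531 and 0.123, and Mx2 was called lower (-0.58, adjusted p = 0.0271).

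**Figure D4:**
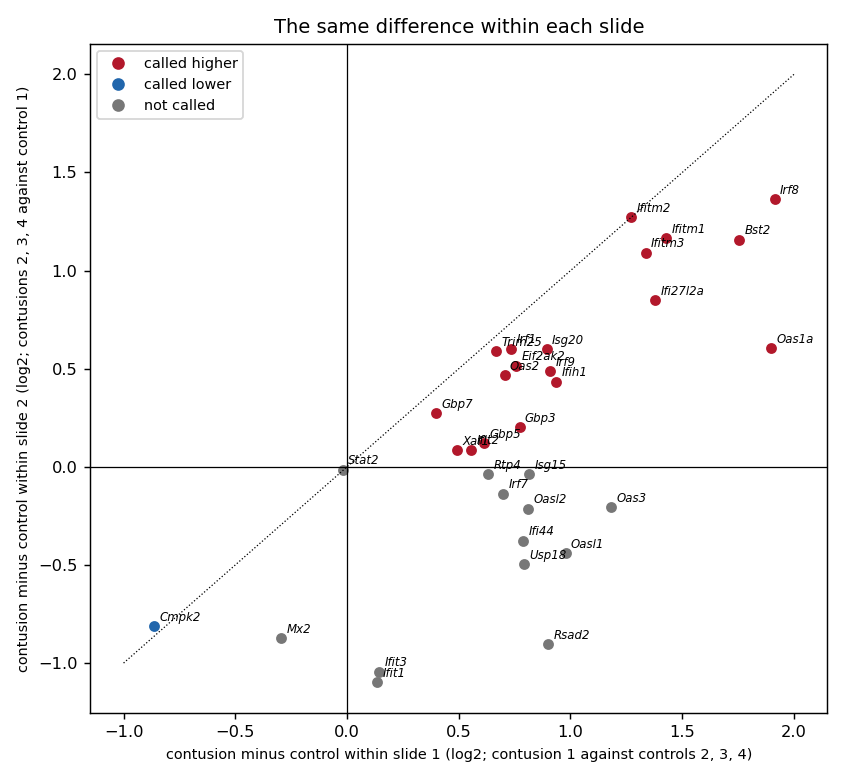
Contusion minus control (log2) within slide 1 on the horizontal axis and within slide 2 on the vertical axis, 1 point per member, coloured by call, with the line of equal values dotted. The members called higher lie in the upper right, at most 1.91 across, and 11 members lie right of 0 and below it.

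Cell type markers also differed between the groups, some lists higher in contusion and some lower, where 25.8% of all mRNAs were called higher and 25.4% lower. All 14 monocyte and macrophage markers were called higher in contusion, and their mean level was 3.66, 3.52, 3.60 and 3.75 on the contusion arrays, against 1.70, 0.89, 1.85 and 0.33 on the control arrays. Of 9 microglial markers 6 were called higher, Tmem119 by 0.91, and P2ry12 was not called (0.25). Endothelial markers were called higher in 7 of 8. Control replicate 1 was the highest control in 24 of the 33 members, compared with 19.8% of all mRNAs. It was so in 7 of 9 skeletal muscle and 3 of 6 dendritic cell markers, and in 5 of 13 lymphocyte markers. It was also so in 5 of 14 neutrophil and 5 of 14 macrophage markers. The counts were 1 of 8 for red blood cell and 1 of 9 for neuronal markers. For microglial (9), endothelial (8), astrocyte (6) and oligodendrocyte (6) markers the count was 0. Red blood cell markers were called higher in 5 of 8, astrocyte markers were called higher in 3 and lower in 2 of 6, lymphocyte markers were called higher in 2 and lower in 1 of 13, dendritic cell markers were called higher in 1 and lower in 1 of 6, and oligodendrocyte markers were called lower in 1 of 6. Of 14 neutrophil markers 4 were called higher and 1 lower, and their mean level was -0.26, 0.04, 1.27 and 1.07 on the contusion arrays, against 0.73, -1.26, 0.91 and -0.54 on the control arrays, so that control replicates 1 and 3 were the higher controls. All 9 markers of spinal neurons were called lower, and all neuronal, oligodendrocyte and astrocyte markers were well above background on every array. The mean over 9 skeletal muscle markers, 0 of them called higher and 1 lower, was 3.99, 2.40, 0.23 and 0.18 in contusion, against 1.35, -0.45, 0.77 and 0.07 in control cords, highest in the first pair of contusions. The 1 called lower was Pvalb (-0.97, adjusted p = 0.000445), which lacked that pattern. Its level was 3.51, 3.47, 3.36 and 3.12 in contusion, against 4.19, 4.50, 4.20 and 4.46 in control cords. The lowest control was replicate 4 in 9 of 9 microglial, 5 of 6 astrocyte and 9 of 14 macrophage markers, compared with 20.0% of all mRNAs. It was so in 5 of 8 red blood cell, 3 of 14 neutrophil and 2 of 8 endothelial markers. Of lymphocyte markers 2 of 13 showed it, and of oligodendrocyte markers 0 of 6. The count was 1 in each of the dendritic cell, neuronal and muscle lists. The part of these cells in the interferon-stimulated mRNAs was not tested. Without control replicates 1 and 3, the controls with the higher neutrophil markers, which leaves in contusion replicates 3 and 4 with levels higher still, 27 members were called higher and 1 lower, where 23.5% and 26.3% of all mRNAs were. Leaving out control replicate 1 alone already gave 28 called higher. This setting therefore cannot separate neutrophil content from whatever else marks that array. Without contusion replicates 1 and 2, those high in muscle markers, 14 members were called higher and 1 lower, where 19.5% and 19.6% of all mRNAs were.

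Genes of the wider pathway outside the 34 were also mostly called higher, apart from the ligands, where 0 of 13 were. Of 18 genes that sense foreign nucleic acid 11 were called higher and 2 lower, where 25.8% and 25.4% of all mRNAs were. Those with the smallest adjusted p-values were Mb21d1, the DNA sensor cGAS (1.34 ± 0.10), Ikbke, a kinase that activates interferon regulatory factors (1.39 ± 0.13), and the adaptors Myd88 (1.21 ± 0.12) and Ticam1 (0.92 ± 0.09). Adar, which edits double-stranded RNA, fell by 0.54 and Traf3, a signalling adaptor, fell by 0.30. Of 76 other interferon-induced genes 73 passed the filter, and 49 of these (67.1%) were called higher and 2 lower, with a median difference of 0.73. The smallest adjusted p-values in that list belonged to B2m, the light chain of MHC class I (0.93 ± 0.09), Ifi27 (0.63 ± 0.07), Pml, which forms nuclear bodies (0.68 ± 0.07), and Psmb8, an immunoproteasome subunit (1.56 ± 0.20). Gbp9 fell by 0.55 and Ifit1bl1 fell by 0.32. Control replicate 1 was the highest control in 51 of the 73, compared with 19.8% of all mRNAs and 25.6% of the mRNAs called higher. Cxcl10, a chemokine named here after its values were seen, had 1.94, 1.41, 2.37 and 1.51 in contusion, against 3.14, 1.80, -0.18 and -1.41 in control cords, and was not called (adjusted p = 0.429).

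Across promoters, 28 of the 34 members were in the RefSeq table, in windows reaching 250 bases before and 50 after the start, and Ifi27l2a, Mx1, Mx2, Oas2, Rtp4 and Usp18 were not. The response element core was found in 15 of the 28 (53.6%), compared with 3.99% of 27025 genes in the table. It was present in 9 of 17 members called higher and 6 of 10 not called. The gamma-activated site core was found in 10 of the 28 (35.7%), compared with 9.55% of all genes. These 10 were Bst2, Eif2ak2, Gbp5, Gbp7, Ifit2, Ifitm3, Irf1, Irf8, Isg20 and Oas1a, all called higher, so that 10 of 17 members called higher held it and 0 of 10 not called. With slide as a block 7 of 12 members called higher and 3 of 15 not called held it, and without control replicate 1 10 of 24 called higher and 0 of 3 not called did. That split by call was made after the values were seen and is given as a description without a test. Over all mRNAs the gamma-activated site core stood in 8.82% of those called higher and 9.09% of those not called, and among the other interferon-induced genes it stood in 4 of 37 called higher and 0 of 16 not called. A match says that these letters are present, not that a factor binds there.

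**Figure D5:**
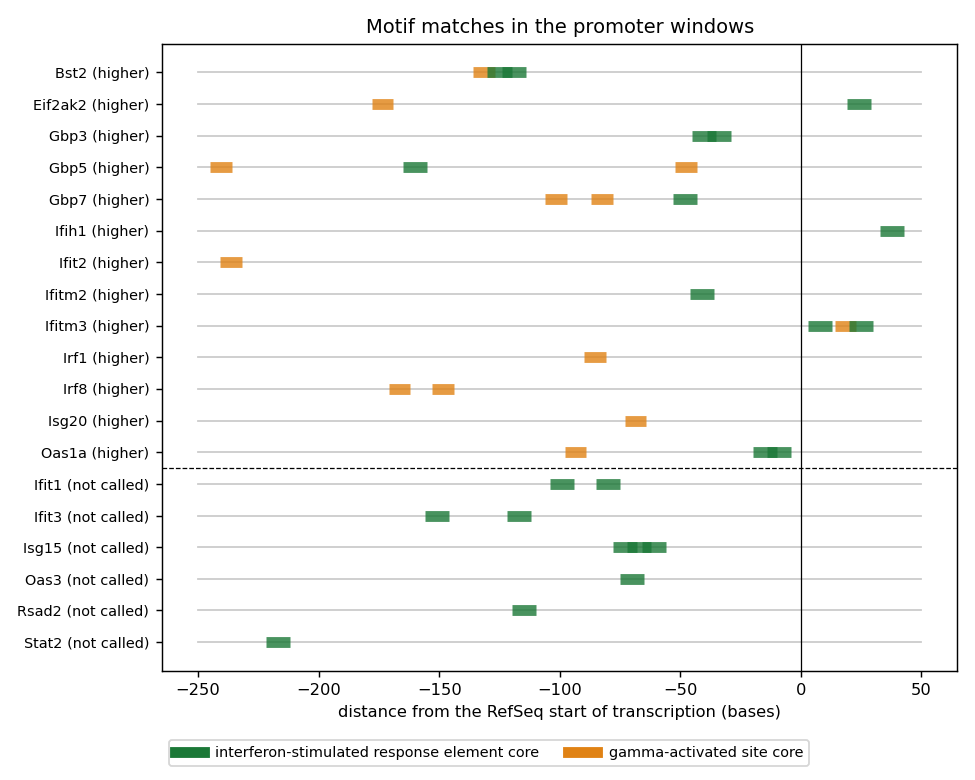
Positions of the matches to both cores in the promoter windows of the 19 members that hold at least 1, in bases from the RefSeq start of transcription, with members called higher above the dashed line and members not called below it. Gamma-activated site cores (orange) appear above the line and response element cores (green) on both sides of it.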

How the data were processed

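The files analysed were scanner output of 8 Agilent 1-colour arrays carrying mRNA, lncRNA and circRNA probes. Per the file headers, Feature Extraction subtracted background from each spot's intensity and removed spatial trends, and did not scale arrays to each other. Its version is 10.7 in the submitters' processing notes, which also name limma, and 12.0.3.1 in the headers, whose build is mm9. The authors' series table holds deposited log2 values that ranked probes as the intensities did (Spearman correlation 1). Its column medians were nearly equal, at 5.3993 to 5.3999, so the arrays had been scaled to each other, by a method not checked here. The series table served as an alternative. The headers count 172336 spots per array, and 155279 were analysed here.

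Levels are log2 processed intensities minus the 75th percentile of each array over 150305 non-control probes, with outlier spots (6 to 53 per array) left out. A probe was kept where 4 or more of 8 arrays had it well above background, and a gene took its kept probe of highest mean. Contusion was set against control by limma 3.58.1 in R 4.3.3 (lmFit, then eBayes, with no covariate). P-values were two-sided and adjusted over 89139 features by the Benjamini-Hochberg method, with calls under 0.05. The fit was tested on simulated data. Errors of differences are standard errors with 4 arrays per group, and no member lacked a value. Precision is limited by the number of arrays, with a median standard error of 0.0944 for mRNA differences. Between 72.9% and 75.4% of probes per array passed the background flag, none was saturated, and arrays within a group correlated at 0.988 to 0.992.

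Gene symbols came from the probe names and the RefSeq table of GRCm38.p6, which matched 99.1% of the mRNA accessions. None of the 49 member probes for which the files list accessions named a second gene. Of 28 members with several kept probes, 0 had probes called in opposite directions, and of 17 called members with several, 12 had every probe called. Values on every array are given for the called members with the largest differences (up to 8 in each direction), the 3 with the smallest adjusted p and the 5 uncalled members with the largest SD, and also for Isg15 and Mx1, which were added after their values were seen. Of the other pathway lists, up to 4 genes with the smallest adjusted p are named in each direction. The members and lists were chosen with earlier results of these data known. Alternatives were normexp background correction with an offset of 50, quantile normalization, the series table, other filters on dim probes, the mean of probes, adjustment over mRNAs alone, slide and replicate blocks, leaving out each array, and, chosen after seeing the data, leaving out the 2 controls with the higher neutrophil markers or the 2 contusions with the higher muscle markers.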

Additional observations from a re-analysis of the deposited data

Results flagged for a closer look

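Among 66 groups of 4 arrays (33 members, each in contusion and in control), 2 held an array set apart from the other 3 by Dixon's test, and chance flags about 1 in 20 groups. In contusion replicate 2 Gbp5 was at 0.074, below the 0.347 to 0.395 of the other contusion arrays. In contusion replicate 3 Usp18 was at 1.07, above the 0.488 to 0.533 of the other contusion arrays.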

How the results depend on the processing

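Of the 20 called members, 15 were called in the same direction in all 19 other settings, and Gbp3, Gbp5, Ifit2, Isg20 and Xaf1 lost the call in at least 1. Leaving out each array in turn gave 15 to 28 members called higher, 1 to 2 called lower, 7928 to 9610 mRNAs called and a median member difference of 0.53 to 0.956. The count called lower was 2 with normexp, with slide as a block and without control replicate 3, Mx2 joining Cmpk2, and the cause was not tested. Signs turned in uncalled members alone: Rsad2 was -0.003 with slide as a block, Stat2 was 0.013 with normexp and 0.015 with the mean of probes, and without control replicates 1 and 3 Ifit1 was 0.258 and Ifit3 0.136. Leaving out 1 array, Ifit1 ran from -0.372 to 0.274, Ifit3 from -0.371 to 0.169 and Stat2 from -0.09 to 0.022. The replicate block gave 17 members called higher, 1 lower and 7469 mRNAs called, against 19, 1 and 9309 without it, where same-numbered replicates share no more than a number: their deviations correlated at -0.302, -0.00595, 3.06e-05 and -0.0465, and no contusion deviated most like its own-numbered control. Contusion replicates 2, 3 and 4 deviated most like control replicate 1, the control on their slide. Contusion replicate 1 deviated most like control replicate 3, also on its slide. A part of the slide in these matches was not tested. The 3 other scalings gave medians over all mRNAs of -0.001 to 0.001, against -0.002, and 19 members called higher each. With 4 arrays per group, members with spread-out controls, such as Rsad2 with a standard error of 0.52, leave differences of that size undetectable, and dim Oas3 and Mx1 are limited by signal over background.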
